A study of Mus musculus with 12 samples.

Results

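The 10 genes described here encode receptors for peptides that set vessel tone and salt balance: the angiotensin II receptors Agtr1a and Agtr2, the endothelin receptors Ednra and Ednrb, the bradykinin receptors Bdkrb1 and Bdkrb2, the natriuretic peptide receptors Npr1, Npr2 and Npr3, and the vasopressin receptor Avpr1a. They were found by the RefSeq accession that each probe carries, among 20144 genes with a named probe on the array. All 10 had a probe, 11 probes in all, since Ednrb had 2. Of the 10, 7 were well above background on 12 of 12 arrays and were tested, and 3 (Agtr2, Bdkrb1 and Bdkrb2) were well above background on 0 arrays.

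Angiotensin II, endothelin, bradykinin and vasopressin act through receptors of the G protein coupled class. Agtr1a, Ednra, Bdkrb2 and Avpr1a raise calcium through Gq and phospholipase C. In the kidney Agtr1a, Ednra and Avpr1a contract arterioles and mesangial cells. Natriuretic peptides act differently: Npr1 and Npr2 are membrane guanylyl cyclases that make cyclic GMP, which opposes contraction, while Npr3 mainly removes the peptides from the circulation. Podocytes, the epithelial cells that cover the glomerular capillaries, are known to respond to angiotensin II, endothelin and atrial natriuretic peptide.

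RNA was measured on 12 one-colour Agilent arrays, 1 per sample, in 6 groups of 2. The mice carried an inducible Cre and floxed alleles of 2 forkhead transcription factor genes, Foxc1 and Foxc2. Glomeruli, the capillary tufts that filter blood, came from mice 8 weeks old that had intraperitoneal tamoxifen on each of 3 days in a row, with glomeruli taken on day 7, or from controls given no agent. Podocytes grown out of adult glomeruli of this genotype were cultured with tamoxifen or as mock cultures for 4 or 7 days. Controls and mock cultures thus carried the same floxed alleles and Cre, and the Cre driver is not given in the sources used here. Tamoxifen and recombination came together in every treated sample, so their parts cannot be told apart. The labels do not say whether numbered cultures were grown separately, so the spread between them may be technical and p-values measure only the spread between these samples.

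Values are log2 of the background-subtracted spot signal minus the 75th percentile of that array, so 0 marks a probe as bright as that percentile. The percentile was 506.8 to 760 signal units over the 12 arrays, and the share of spots well above background was 57.9% to 63.4%. A level of one probe is not set against that of another. Differences were tested with limma in 1 fit of all 12 arrays over 15217 genes with Benjamini-Hochberg adjustment over all of them, and a gene was called where the adjusted p was under 0.05. An exact two-sided permutation test of 2 against 2 arrays cannot go below p = 0.333. The 4 glomerular arrays lay on 1 slide and the arrays of each culture day on another, so each tamoxifen comparison stayed within 1 slide, while culture against glomeruli and day 7 against day 4 cannot be told apart from the slide.

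The 2 targeted genes were read first, as a check of the labels. Foxc2 read -1.12 and -0.19 in tamoxifen glomeruli, against 2.10 and 2.24 in control glomeruli, and fell by 2.82 (SE 0.51, adjusted p = 0.037 by limma), a call held in 3 of 12 fits that each left out 1 array (highest adjusted p 0.18). Its probe was not well above background on any tamoxifen culture. Against mock cultures it was thus at least 139-fold lower on day 4 (adjusted p = 0.0019 by limma), and on day 7 the bound was at least 151-fold lower (adjusted p = 7e-04). Each such bound sets the mean of the brighter group against that of the dimmer group. A dimmer array counts at the gene's value or at its lowest signal still well above background, whichever is higher. Foxc1 read -5.78 and -1.74 in day 4 tamoxifen cultures against 3.09 and 4.21 in mock cultures, and -8.21 and -3.26 against 2.62 and 4.32 at day 7, with both tamoxifen arrays below both mock arrays on each day. On each day 1 of the 2 tamoxifen cultures, replicate 1, was not well above background for Foxc1, so no size is given. The Foxc1 comparisons did not pass the test (adjusted p = 0.14 on day 4 and 0.057 on day 7 by limma). They passed with normexp background correction (adjusted p = 0.022 and 0.0052 by limma), but that correction called 5039 genes at day 4, against 32 in the reported fit. In glomeruli Foxc1 read 0.92 and 1.09 after tamoxifen against 2.92 and 2.81 in controls (difference -1.86, SE 1.69, adjusted p = 0.62 by limma). All 12 podocyte markers were well above background on 12 of 12 arrays, with summed signals relative to the 75th percentile of 94.5 to 118 in cultures against 429.4 and 552.1 in control glomeruli.

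After tamoxifen, 0 of the 7 tested receptors passed the threshold in glomeruli, at day 4 or at day 7, where 2.64%, 0.21% and 0.973% of all 15217 genes were called. At an unadjusted p under 0.05 the receptors numbered 1, 1 and 2 of 7 (2789, 1665 and 1856 of all genes). The largest uncalled differences in culture were those of Npr1 (-2.27 at day 4 and -2.82 at day 7) and Ednra (1.52 and 1.90), while Agtr1a and Ednrb differed there by -0.40 to -0.10. Between mock cultures and control glomeruli 5 of 7 receptors were called, 3 lower and 2 higher in culture. This lies near the share of all genes called there, 63.6% (26% lower and 37.6% higher), and is not a result about the receptors. The 3 lower in culture differed by -4.71 (Ednrb), -3.36 (Agtr1a) and -2.50 (Ednra), and the 2 higher by 0.71 (Npr2) and 0.90 (Npr3).

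**Figure D1:**
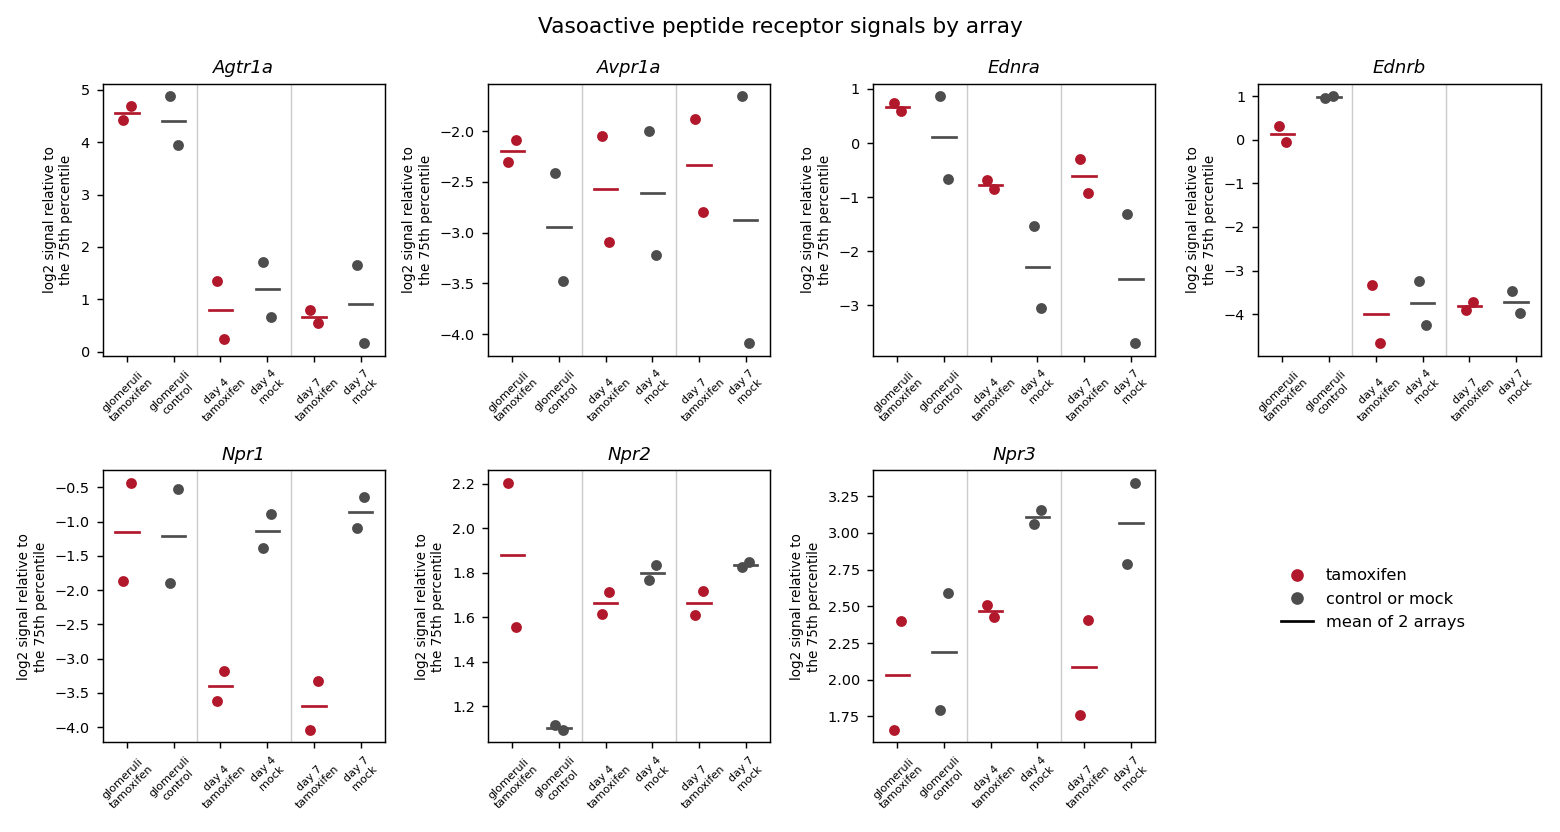
Signal of the 7 receptors well above background on every array, as log2 relative to the array's 75th percentile, with its own axis per gene. Each point is 1 array, red for tamoxifen and grey for control or mock, and lines are means of 2 arrays. Npr1 sits between -4.04 and -3.19 in the 4 tamoxifen cultures and between -1.39 and -0.63 in the 4 mock cultures, while Agtr1a and Ednrb separate glomeruli from cultures.

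Npr1, the guanylyl cyclase that binds atrial and brain natriuretic peptides, had the lowest p of the receptors in both culture comparisons. At day 4 it read -3.62 and -3.19 in tamoxifen cultures, against -1.39 and -0.89 in mock cultures. At day 7 it read -4.04 and -3.33 in tamoxifen cultures, against -1.09 and -0.63 in mock cultures. All 4 tamoxifen cultures were lower than all 4 mock cultures. The difference was -2.27 at day 4 (SE 0.57, 95% interval -3.59 to -0.94, 4.81-fold lower, unadjusted p = 0.00439, adjusted p = 0.18 by limma). It was -2.82 at day 7 (SE 0.57, interval -4.15 to -1.50, 7.08-fold lower, unadjusted p = 0.00123, adjusted p = 0.077 by limma), so neither passed in this fit, which has no block. Leaving out each array in turn gave day 7 differences of -3.18 to -2.47 (adjusted p 0.062 to 0.39). With normexp background correction the Npr1 difference was smaller, -0.58 at day 4 and -1.88 at day 7 (adjusted p = 0.36 and 0.15 by limma). That correction called 5039 of all genes at day 4, against 32 in the reported fit. With the replicate number as a block Npr1 was called on both days, but the labels do not say what a number stands for.

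In glomeruli Npr1 read -1.87 and -0.43 after tamoxifen, against -1.89 and -0.52 in controls. The groups overlapped fully, with 1 low and 1 high array in each, and differed by 0.05 (SE 0.57, adjusted p = 0.98 by limma). The glomerular response minus the mean culture response was 2.60 (SE 0.70, unadjusted p = 0.00625, adjusted p = 0.12 by limma), which did not pass, and 1.08% of all genes were called in that comparison. The culture differences at day 7 and day 4 differed by -0.56 (SE 0.81, adjusted p = 1 by limma). Mesangial and mural markers summed to 636 and 684 in tamoxifen cultures, against 513 and 481 in mock cultures, at day 4. At day 7 they summed to 640 and 616, against 564 and 470. By mean difference 7 of the 12 lay higher and 5 lower at day 4, and 8 higher and 4 lower at day 7. Called lower at day 7 were 1 of these 12 (Rgs5), 1 of 12 podocyte markers (Clic5) and 1 of 8 parietal markers (Cldn1). None of these 3 lists had a member called higher, and 0.973% of all genes were called in either direction. The part of these markers in the Npr1 values was not tested. In bulk samples like these, fewer cells that carry a receptor and less of its RNA per cell cannot be told apart.

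Npr3, the clearance receptor without a cyclase domain, lay on the same side as Npr1 in culture. At day 4 it read 2.51 and 2.43 in tamoxifen cultures, against 3.06 and 3.16 in mock cultures. At day 7 it read 1.76 and 2.40 in tamoxifen cultures, against 2.79 and 3.34 in mock cultures. Every tamoxifen culture was below every mock culture. The differences were -0.64 at day 4 (SE 0.36, adjusted p = 0.59 by limma) and -0.98 at day 7 (SE 0.36, 1.97-fold lower, unadjusted p = 0.0261, adjusted p = 0.31 by limma). In glomeruli Npr3 read 1.66 and 2.40 after tamoxifen, against 1.79 and 2.59 in controls, with overlapping groups (difference -0.16, SE 0.36, adjusted p = 0.86 by limma).

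Npr2, the guanylyl cyclase that binds C-type natriuretic peptide, had the narrowest range of the 7 receptors across the arrays. In glomeruli it read 2.20 and 1.56 after tamoxifen, against 1.12 and 1.09 in controls. Both tamoxifen arrays were higher than both controls, by a mean of 0.77 (SE 0.19, 95% interval 0.34 to 1.21, 1.71-fold, unadjusted p = 0.00345, adjusted p = 0.074 by limma), which did not pass. Of 12 fits that each left out 1 array, with the spread of a lone array taken from the other groups, 1 called Npr2. Without tamoxifen glomeruli replicate 1 the difference was 0.45 (adjusted p = 0.19), and without replicate 2 it was 1.1 (adjusted p = 0.0082). Cell type markers also moved in tamoxifen glomeruli, and their part was not tested: 1 of 12 mesangial and mural markers was called higher (6 lay higher without overlap), 2 of 12 tubule markers higher (10 higher without overlap, median difference 1.34), 1 of 12 podocyte markers lower and 3 of 5 red blood cell markers lower. Of 12 endothelial markers 9, and of 9 immune markers 7, lay lower without overlap, with 0 called in either list. Of the tested parietal and fibroblast markers 0 of 8 and 0 of 7 were called. Over all 15217 genes, 48% lay without overlap in this comparison and 2.64% were called, counting either direction. Podocyte markers summed to 289.7 and 386.1 in tamoxifen glomeruli, against 429.4 and 552.1 in control glomeruli.

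In culture Npr2 read 1.62 and 1.71 with tamoxifen at day 4, against 1.77 and 1.83 in mock cultures. At day 7 it read 1.61 and 1.72 with tamoxifen, against 1.82 and 1.85 in mock cultures. The groups did not overlap on either day, yet the differences were small, -0.14 at day 4 (adjusted p = 0.88 by limma) and -0.17 at day 7 (SE 0.19, adjusted p = 0.81 by limma). The glomerular response exceeded the mean culture response by 0.93 (SE 0.23, adjusted p = 0.098 by limma), which did not pass.

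The promoters of Npr1 and Npr3 are shown because these receptors had the largest differences below 0 in tamoxifen cultures. Each runs from 250 bases before to 50 bases after the RefSeq start, on the gene's own strand in assembly GRCm38.p6, at chr3:90465817-90466116 (minus strand) for Npr1 and chr15:11907322-11907621 (minus strand) for Npr3. Capitals mark a GC box, GGGCGG on either strand.
Npr1: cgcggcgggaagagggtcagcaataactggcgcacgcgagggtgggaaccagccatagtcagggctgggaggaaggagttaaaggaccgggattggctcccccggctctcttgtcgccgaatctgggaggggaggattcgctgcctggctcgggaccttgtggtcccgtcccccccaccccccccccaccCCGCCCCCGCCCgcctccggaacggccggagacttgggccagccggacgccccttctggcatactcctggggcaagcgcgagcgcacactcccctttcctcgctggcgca
Npr3: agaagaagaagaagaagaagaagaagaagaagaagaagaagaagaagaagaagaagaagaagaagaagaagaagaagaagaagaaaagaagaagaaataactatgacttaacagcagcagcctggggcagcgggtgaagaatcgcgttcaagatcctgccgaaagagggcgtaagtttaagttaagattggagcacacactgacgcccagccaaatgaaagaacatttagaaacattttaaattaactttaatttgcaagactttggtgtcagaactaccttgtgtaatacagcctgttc

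The Npr1 promoter was 69.7% G or C with 26 CpG dinucleotides, against a median of 7 over all 32851 promoters in the table. It held 2 GC boxes, which read CCGCCC on the gene's strand and begin 60 and 54 bases before the start. The Npr3 promoter was 39% G or C with 6 CpG, held no GC box and opened with a long run of an AAG repeat. Motifs were searched on both strands and chosen after the values had been seen: GGGCGG was in 35.7% of all promoters, TATAAA in 13.6% and TAAACA, a core that forkhead factors can bind, in 13.4%. TAAACA was in 0 of the 8 receptor promoters in the table, and TATAAA was in that of Avpr1a alone. A match describes these letters and is not a site.

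**Figure D2:**
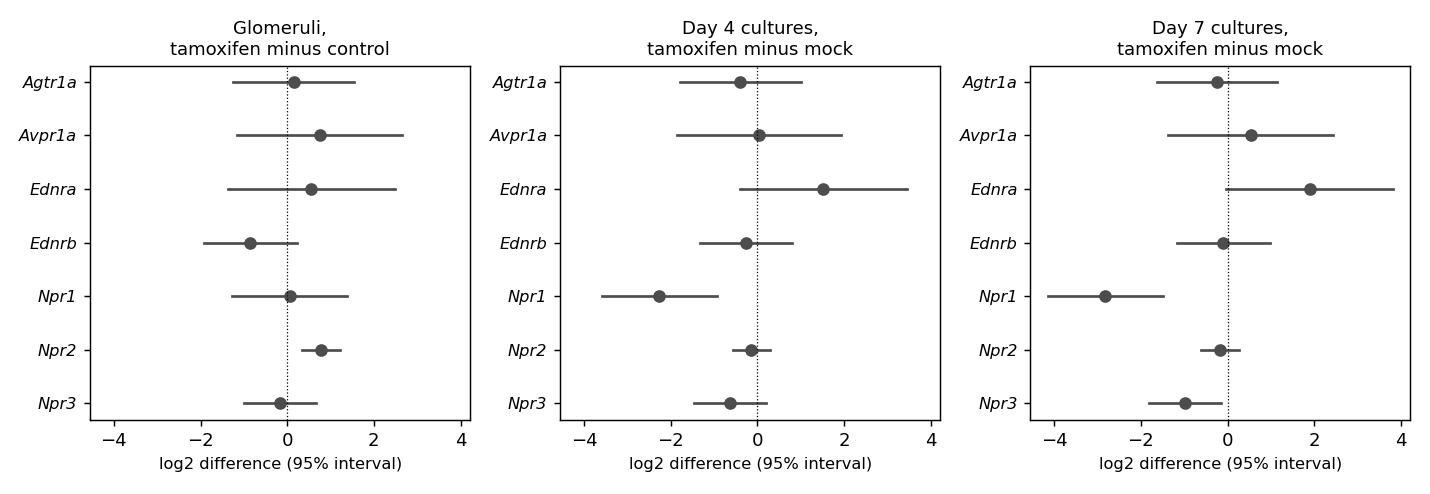
Tamoxifen minus control or mock, as log2 difference for each receptor, in glomeruli and in cultures at day 4 and day 7. Points are limma estimates from 2 against 2 arrays and lines are 95% intervals without adjustment for the number of genes. The intervals of Npr1 at day 4 and day 7, of Npr3 at day 7 and of Npr2 in glomeruli lie off 0, and none of the 21 differences passed after adjustment.

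Agtr1a, the main type 1 angiotensin II receptor of the mouse, was much brighter in glomeruli than in culture. It read 4.42 and 4.70 in tamoxifen glomeruli, against 4.88 and 3.94 in control glomeruli, with both treated values between the 2 controls (difference 0.15, SE 0.60, 95% interval -1.24 to 1.54, adjusted p = 0.93 by limma). At day 4 it read 1.36 and 0.25 with tamoxifen, against 1.72 and 0.67 in mock cultures. At day 7 it read 0.80 and 0.54 with tamoxifen, against 1.66 and 0.16 in mock cultures. The culture groups overlapped on both days, and the differences of -0.40 and -0.24 did not pass (adjusted p = 0.89 and 0.94 by limma).

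Agtr1a fell by 3.36 in mock cultures relative to control glomeruli (SE 0.52, 10.2-fold, adjusted p = 0.00075 by limma), and the 4 mock arrays and 2 control arrays did not overlap. The call held in each of the 23 alternatives run for it, with values of -3.83 to -2.89. Agtr2, the type 2 angiotensin receptor, read -7.81 to -7.08 over the 12 arrays with a median of -7.34. The lowest signal still well above background was -6.21 to -5.48, depending on the array, so Agtr2 had no measured level in any group.

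Ednra, the endothelin receptor that contracts vascular and mesangial cells, had the largest difference above 0 in tamoxifen cultures. At day 4 it read -0.69 and -0.85 with tamoxifen, against -1.53 and -3.05 in mock cultures. At day 7 it read -0.29 and -0.93 with tamoxifen, against -1.31 and -3.70 in mock cultures. The tamoxifen arrays were all above the mock arrays, and in each mock group replicate 2 was far lower than replicate 1. The differences were 1.52 at day 4 (SE 0.83, adjusted p = 0.58 by limma) and 1.90 at day 7 (SE 0.83, 95% interval -0.03 to 3.82, unadjusted p = 0.0524, adjusted p = 0.42 by limma). They depended on single arrays: leaving out each in turn gave 0.76 to 2.28 at day 4 and 0.70 to 3.09 at day 7, with 0 of 12 fits calling Ednra on either day. In glomeruli Ednra read 0.73 and 0.60 after tamoxifen, against 0.87 and -0.66 in controls, with overlap (difference 0.56, adjusted p = 0.78 by limma).

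Ednrb, the endothelin receptor of endothelium that also clears the peptide, was measured by 2 probes. The brighter probe read 0.31 and -0.04 in tamoxifen glomeruli, against 0.96 and 1.00 in control glomeruli. The other read 0.02 and -0.38 after tamoxifen, against 0.61 and 0.61 in controls. On both probes the treated arrays lay below the controls, by 0.85 on the brighter one (difference -0.85, SE 0.46, 95% interval -1.91 to 0.22, adjusted p = 0.38 by limma) and by 0.79 on the other (difference -0.79, adjusted p = 0.51 by limma), neither past the threshold.

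Endothelial markers moved beside Ednrb in glomeruli: their summed signal was 245.8 and 243.4 after tamoxifen, against 345.7 and 294.2 in controls. Of these markers 9 of 12 lay lower without overlap, and 0 of 12 were called. Counting either direction, 48% of all genes lay without overlap and 2.64% were called. The part of endothelial markers in the Ednrb values was not tested. In culture the brighter Ednrb probe read -3.34 and -4.67 with tamoxifen at day 4, against -3.24 and -4.26 in mock cultures. At day 7 it read -3.90 and -3.73 with tamoxifen, against -3.46 and -3.98 in mock cultures. Groups overlapped on both days (differences -0.26 and -0.10, adjusted p = 0.91 and 0.98 by limma). The other probe, well above background on 11 of 12 arrays, read -4.41 and -6.26 with tamoxifen against -4.07 and -5.05 in mock cultures at day 4, and -5.06 and -4.70 against -4.44 and -4.98 at day 7, with overlap again.

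Avpr1a, the vasopressin receptor of vascular smooth muscle, read -2.30 and -2.09 in tamoxifen glomeruli, against -2.42 and -3.47 in control glomeruli. The treated arrays were both above the controls, with a difference of 0.75 (SE 0.82, adjusted p = 0.69 by limma) that lay within the error. In culture it read -2.05 and -3.09 with tamoxifen at day 4 against -2.0 and -3.22 in mock cultures, and -1.88 and -2.79 with tamoxifen at day 7 against -1.65 and -4.09 in mock cultures. Groups overlapped and replicate 1 exceeded replicate 2 in each culture group. The differences were 0.03 and 0.54 (adjusted p = 1 and 0.88 by limma).

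The bradykinin receptors were dim throughout. Bdkrb2, the constitutive kinin receptor, read -8.01 to -7.51 with a median of -7.75, and Bdkrb1, the kinin receptor induced by inflammation, read -7.90 to -5.91 with a median of -7.19. Neither was well above background on any of the 12 arrays, so no kinin receptor difference could be measured in any comparison.

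Across the 7 tested receptors, arrays did not overlap between tamoxifen and control glomeruli for 3 of 7, against 48% of all genes, nor between tamoxifen and mock cultures for 4 of 7 on each day, against 50.6% of all genes at day 4 and 41.3% at day 7. These shares lie near the background and are not a result about the receptors. The median difference of the 7 was 0.15 in glomeruli, -0.26 at day 4 and -0.17 at day 7, against -0.05, 0.02 and 0.00 over all genes.

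Between materials, Agtr1a and both endothelin receptors were lower in culture, and the natriuretic receptors Npr2 and Npr3 were higher. Relative to control glomeruli, Ednrb fell by 4.71 in mock cultures (SE 0.40, 26.3-fold, adjusted p = 2.9e-05 by limma) on its brighter probe, and its other probe differed by -5.24 (adjusted p = 5.6e-05). Ednra fell by 2.50 (SE 0.72, 5.67-fold, adjusted p = 0.016 by limma). Npr2 rose by 0.71 (SE 0.16, 1.64-fold, adjusted p = 0.0055 by limma) and Npr3 by 0.90 (SE 0.31, 1.86-fold, adjusted p = 0.034 by limma). The median over all genes was 0.17, and 0.41 when arrays were scaled to their median, a shift that left the sign and the call of these 5 receptors as they were. Npr1 and Avpr1a differed by 0.21 each, which did not pass (adjusted p = 0.74 and 0.81 by limma).

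The calls of Ednra and Npr3 depended on control glomeruli. Without control glomeruli replicate 1, Ednra differed by -1.74 (adjusted p = 0.14) and Npr3 by 0.50 (adjusted p = 0.27), neither past the threshold by limma. Npr3 also missed it without either day 4 mock array, either day 4 tamoxifen array or day 7 mock replicate 2 (adjusted p 0.051 to 0.085). Markers of several cell types moved with these differences, and their part was not tested. Between mock cultures and control glomeruli 63.6% of all genes were called, 37.6% higher and 26% lower in culture. Endothelial markers summed to 7.78 to 12.3 in all cultures, and 12 of 12 fell in mock cultures, with Tek, Tie1 and Erg not well above background on any of the 8 cultures. Of 12 podocyte markers, 10 were called lower and 1 higher. Mesangial and mural markers summed to 470 to 564 in mock cultures, against 101 and 55.6 in control glomeruli, with 3 called higher and 8 lower. Calls in mock cultures also ran to 5 of 8 parietal epithelium markers higher and 2 lower, 4 of 7 fibroblast markers higher and 2 lower, 1 of 9 immune markers each way, and 12 of 12 tubule and 5 of 5 red blood cell markers lower.

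**Figure D3:**
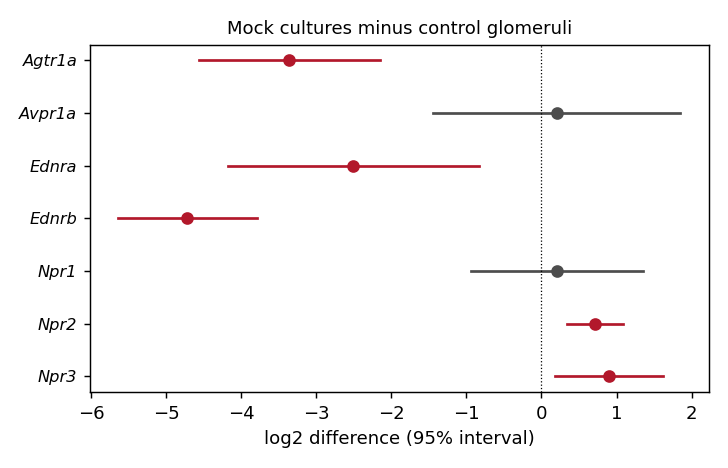
Mock cultures (mean of the day 4 and day 7 groups, 4 arrays) minus control glomeruli (2 arrays), as log2 difference with its 95% interval. Red marks the 5 receptors called by limma after adjustment over all genes and grey the other two. Ednrb at -4.71, Agtr1a at -3.36 and Ednra at -2.50 lie below 0, and Npr2 at 0.71 and Npr3 at 0.90 lie above it.

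Between day 7 and day 4 mock cultures 0 of 7 receptors were called and 0.0329% of all genes, and no receptor differed by more than 0.28 (at an unadjusted p under 0.05 there were 0 of 7 receptors and 988 genes). The tamoxifen difference at day 7 minus that at day 4 was called for 0 of 7 receptors and 0% of all genes by limma, with 0 of 7 and 137 genes at an unadjusted p under 0.05.

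The other genes of these pathways were read as 6 lists, of which the tested members are counted here. Beside these counts, 2.64% of all 15217 genes were called after tamoxifen in glomeruli, 0.21% at day 4 and 0.973% at day 7. Of 9 tested peptide ligands and precursors (12 listed), 0 were called in any tamoxifen comparison. In glomeruli the kininogen Kng1 read 0.71 and the endothelin Edn2 -0.66 as differences. At day 4 Nppa, which encodes atrial natriuretic peptide, differed by 1.71 (adjusted p = 0.24) and Kng1 by -1.34 (adjusted p = 0.25), and at day 7 Kng1 by -1.73 and Kng2 by -1.64 (adjusted p = 0.11 each, by limma). The list's median difference was 0.06 in glomeruli, 0.22 at day 4 and 0.25 at day 7.

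Of 12 tested peptide processing and degrading enzymes (14 listed), 0 were called after tamoxifen, with medians of 0.14, -0.08 and -0.09. Enpep, the aminopeptidase that trims angiotensin II, differed by 1.73 at day 4 and 1.90 at day 7 (adjusted p = 0.18 and 0.11). The aminopeptidase Anpep differed by 1.56 in glomeruli (adjusted p = 0.068) and by -0.98 at day 7 (adjusted p = 0.32 by limma). At day 4 Ece2, an endothelin converting enzyme, was well above background on 0 tamoxifen arrays and 1 mock array. In glomeruli, tubule markers were higher too, with 2 of 12 called higher and none lower (2.64% of all genes were called in either direction). They summed to 156 and 95.3 in tamoxifen glomeruli, against 64.7 and 65.3 in control glomeruli. Tubule cells are rich in Anpep, and the part of these markers was not tested.

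Of 10 tested receptors for other vasoactive peptides (12 listed), 0 were called after tamoxifen, with medians of -0.26, 0.15 and 0.16. The oxytocin receptor Oxtr differed by 0.74 in glomeruli, 0.94 at day 4 and 1.01 at day 7 (adjusted p = 0.21, 0.26 and 0.17 by limma). In glomeruli Calcrl, the calcitonin receptor-like receptor, differed by -0.78 (adjusted p = 0.58). Calcrl at day 4 and the apelin receptor Aplnr at day 7 were not well above background in either group. Of 19 tested genes of Gq and calcium signalling (20 listed) 0 were called, with medians of -0.07, -0.09 and -0.12, and the phospholipase Plcb1 differed by -1.32 at day 4 and -1.29 at day 7 (adjusted p = 0.29 and 0.24 by limma). In glomeruli the channel Trpc6 differed by 0.70 and the transcription factor Nfatc1 by -0.52, and at day 7 the phospholipase Plcb4 by 0.62 (adjusted p = 0.59, 0.22 and 0.18). At day 4 Trpc6 was well above background on 0 tamoxifen arrays and 1 mock array.

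Of 12 regulators of these receptors 1 was called lower at day 7 and 0 elsewhere after tamoxifen, with medians of -0.06, -0.17 and -0.23. It was Rgs5, a GTPase activator that shortens Gq and Gi signals and also marks mural cells. At day 7 Rgs5 read -3.80 and -4.01 with tamoxifen, against -0.67 and -1.50 in mock cultures, and fell by 2.82 (SE 0.30, 7.05-fold, adjusted p = 0.014 by limma). At day 4 it read -2.26 and -3.00 with tamoxifen, against -0.66 and -0.83 in mock cultures (difference -1.88, adjusted p = 0.065). In glomeruli it read 1.28 and 1.33 after tamoxifen, against 0.93 and 0.72 in controls (difference 0.48, adjusted p = 0.45 by limma, not called). The day 7 call was lost without day 7 tamoxifen replicate 1 (adjusted p = 0.083) or replicate 2 (adjusted p = 0.078), with normexp (difference -1.56, adjusted p = 0.072) and in a fit of the compared arrays alone (adjusted p = 0.27). Uncalled, Rgs4 differed by -0.67 and the receptor kinase Grk3 by 0.62 (adjusted p = 0.054) in glomeruli, and Rgs16 by 1.46 at day 4 (adjusted p = 0.28).

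Of 14 genes of cyclic GMP signalling, Npr1 among them, 1 was called lower in glomeruli, 0 at day 4 and 1 higher at day 7, with medians of 0.12, -0.23 and -0.14. The shares of all genes called were 2.64%, 0.21% and 0.973%. Pde2a, a phosphodiesterase that cyclic GMP activates, read 2.78 and 3.04 with tamoxifen at day 7, against 0.99 and 0.12 in mock cultures, and rose by 2.36 (SE 0.31, 5.12-fold, adjusted p = 0.022 by limma). At day 4 Pde2a read 2.18 and 2.53 with tamoxifen against 0.74 and 0.22 in mock cultures (difference 1.87, adjusted p = 0.067). In glomeruli it read 5.41 and 5.16 after tamoxifen against 6.18 and 5.76 in controls, the opposite side. That glomerular difference, -0.68, was not called (SE 0.31, adjusted p = 0.31 by limma). Leaving out day 7 mock replicate 2 (adjusted p = 0.10) or either day 7 tamoxifen array (adjusted p = 0.13 and 0.11) ended the Pde2a call, as did a fit of the compared arrays alone (adjusted p = 0.31).

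Pde5a, the phosphodiesterase that breaks down cyclic GMP and is blocked by sildenafil, read -1.99 and -2.28 in tamoxifen glomeruli, against -0.88 and -1.15 in control glomeruli. It fell by 1.12 (SE 0.15, 2.17-fold, adjusted p = 0.022 by limma), a call lost without control glomeruli replicate 1 (adjusted p = 0.069), with normexp (difference -0.79, adjusted p = 0.21) and in a fit of the compared arrays alone (adjusted p = 0.27). In culture it read -2.64 and -2.45 with tamoxifen against -2.28 and -2.33 in mock cultures at day 4, and -1.60 and -1.56 against -1.74 and -1.99 at day 7, on opposite sides on the 2 days.

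**Figure D4:**
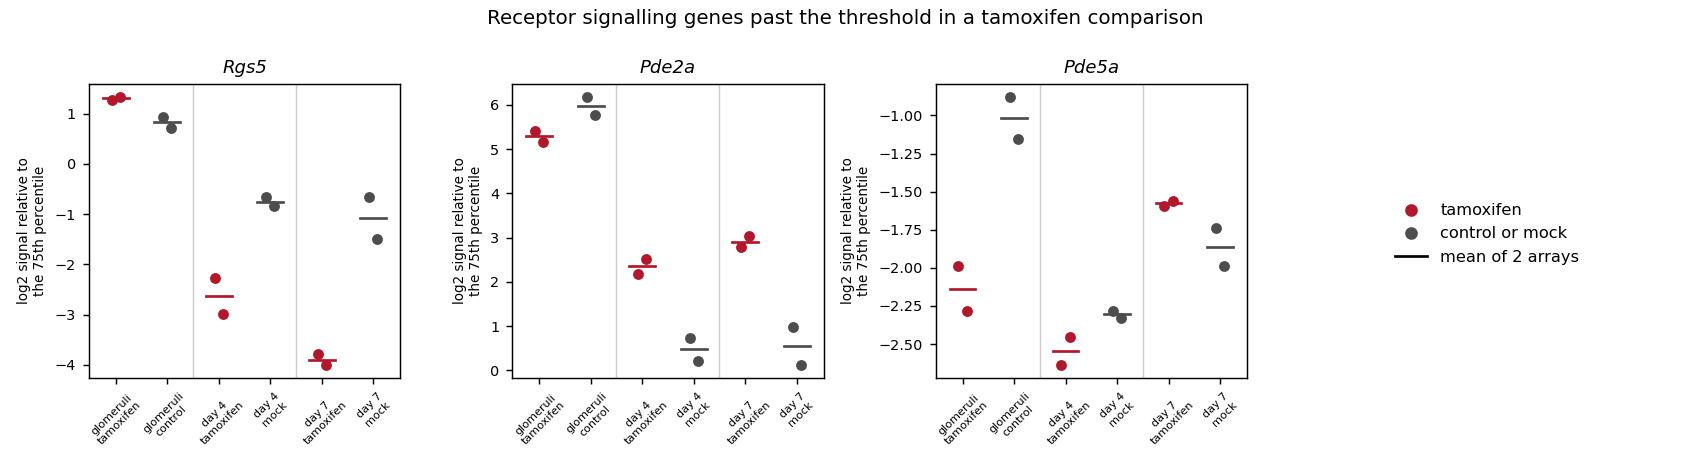
Signal of the 3 pathway genes called in a tamoxifen comparison, as log2 relative to the array's 75th percentile, with 1 point per array and a line at the mean of 2 arrays. Red points are tamoxifen and grey points control or mock. Rgs5 lies lower and Pde2a higher with tamoxifen on both culture days, and Pde5a lies lower in tamoxifen glomeruli.

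Between mock cultures and control glomeruli most genes on these lists were called, as were 63.6% of all genes. Counted as higher and lower in culture, the calls were 3 and 3 of 9 ligands, 4 and 8 of 12 enzymes, 2 and 6 of 10 other receptors, 1 and 14 of 19 Gq genes, 2 and 6 of 12 regulators and 2 and 9 of 14 cyclic GMP genes. Among ligands Edn1, the main endothelin, rose by 2.31 and the kininogens Kng2 and Kng1 fell, with differences of -4.46 and -4.05. Oxtr rose by 6.70, while Ramp2 and Ramp3, which partner the calcitonin receptor-like receptor, fell, with differences of -9.64 and -7.28 (adjusted p at most 0.0011 for each of these 6 by limma). Klk1, a kallikrein that releases kinins, was not well above background in mock cultures and was at least 598-fold lower there (adjusted p = 6.4e-07 by limma). Calcrl likewise was at least 16.7-fold lower (adjusted p = 0.00011), and Enpep fell by 3.38 (adjusted p = 0.00013). Nppa and Ece2 were not well above background in control glomeruli and were at least 3.74-fold and at least 1.81-fold higher in mock cultures (adjusted p = 0.001 and 0.00023).

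Downstream, the calcium channel Trpc6, which Gq signals open in podocytes, fell by 4.05 (adjusted p = 0.00025 by limma) and was well above background on 2 of 4 mock arrays. The phospholipase Plcb1 fell by 3.19, the regulator Rgs2, an inhibitor of Gq, by 2.71, Pde2a by 5.45 and Gucy1a1, a subunit of the soluble guanylyl cyclase, by 3.66 (adjusted p at most 0.00075 for each by limma). Rgs16 rose by 5.19 (adjusted p = 1.7e-05) and was well above background on 1 of 2 control arrays. Grk3 was at least 3.17-fold lower in mock cultures (adjusted p = 1.5e-07 by limma). The calcium release channel Itpr3 fell by 3.27, the arrestin Arrb1 by 2.28 and Mrvi1, a target of the cyclic GMP kinase, by 2.54 (adjusted p at most 0.0016 for each). The phosphodiesterase Pde9a fell by 4.19 (adjusted p = 0.00021) and was well above background on 2 of 4 mock arrays.

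For each tested receptor the genes most like it were taken as those with the smallest root mean square difference over the 12 arrays, each gene centred on its own mean. The arrays fall into glomeruli and cultures, so these likenesses are descriptions. For Ednrb they were Emcn and Acvrl1, genes of endothelium (0.28 and 0.291 log2 units, against a spread of 2.11 for Ednrb itself). For Agtr1a they were Gpm6b and Slc7a8 (0.244 and 0.251, against 1.77). For Npr1 they were Sema3e and Plcl2 (0.475 and 0.488, against 1.25), a looser match.

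The nearest genes of the others were Ly6e and Sorl1 for Ednra (0.41 and 0.421), Nit2 and Tmem120a for Npr2 (0.108 and 0.132), Mocs1 and Nap1l3 for Npr3 (0.183 and 0.217) and Cox4i2 and Hoxa11os for Avpr1a (0.356 and 0.385). The distances are not comparable between receptors, since a gene that varies little, such as Npr2 with a spread of 0.294, lies near many others.

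**Figure D5:**
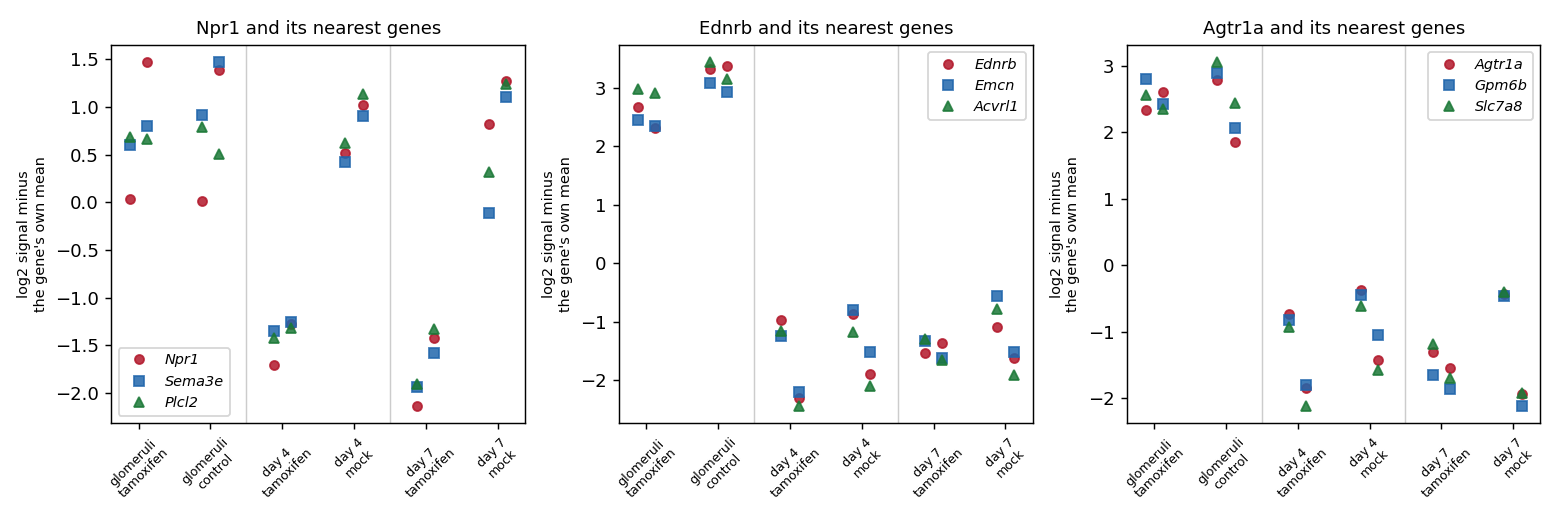
Npr1, Ednrb and Agtr1a (red circles) with their 2 nearest genes (blue squares and green triangles) on the 12 arrays, as log2 signal minus the mean of each gene. The Ednrb and Agtr1a panels are set by the step between glomeruli and cultures, and the Npr1 panel by the step between tamoxifen and mock cultures.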

How the data were processed

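Per the file headers, Agilent Feature Extraction 11.5.1.1 wrote each deposited file of linear spot intensity, with a background-subtracted signal, a local background and flags. Values in the authors' deposited table are log2 and matched the processed signal relative to the 75th percentile of the array (r = 1, median difference 0.094 to 0.12, column medians -4.14 to -3.81), and 0 columns belonged to no sample.

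Control and outlier spots were dropped, log2 was taken, the 75th percentile subtracted and spots of a probe averaged. A probe was kept if at least 2 of 12 arrays had it well above background, and the brightest probe on average stood for a gene, which gave 15217 genes. Probes were named from the RefSeq accession on the array and a gene table of GRCm38.p6, with 26581 of 28115 matched. Groups were compared with limma 3.58.1 in R 4.3.3 (lmFit, eBayes, 6 group means, no block). Labels number the second floxed gene differently between samples, and the series title was followed. The number of arrays limits the precision.

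Alternatives were normexp with offset 50, median and quantile scaling, no filter or at least 6 arrays, mean of probes, eBayes with trend and robust options, only the arrays compared, the authors' table, the replicate number as a block and each array left out. A slide block was not run, since each slide held 1 material and day. The script was tested on simulated data. Named were all receptors, the targeted genes, up to 4 called members of a list (2 by size where none was called) for the tamoxifen and material comparisons, and 2 nearest genes per receptor. The values of 2 listed genes are not reported here. Members and lists were chosen with earlier results of these data known. The 6 pathway lists were ligands, enzymes, other receptors, Gq and calcium, regulators and cyclic GMP. Marker lists were podocyte, mesangial and mural, endothelial, tubule, parietal epithelium, immune, red blood cell and fibroblast.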

Additional observations from a re-analysis of the deposited data

Results flagged for a closer look

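Among the targeted genes, the receptors and the 6 pathway lists, 4 genes responded to tamoxifen differently in glomeruli and in culture. The difference itself was tested (glomerular minus mean culture response, limma over all 15217 genes), and 164 of all genes (1.08%) were called. Of the marker lists, Slc22a6 and Alas2 were called there too (adjusted p = 0.029 and 0.041 by limma). Foxc2 differed by 5.6 (SE 0.63, adjusted p = 0.023), a fitted value whose size was not measured, since the tamoxifen cultures, unlike the mock cultures, were not well above background for Foxc2. Rgs5 differed by 2.83 (SE 0.37, adjusted p = 0.029), with tamoxifen arrays lower than mock on both culture days and above control in glomeruli. Its glomerular difference alone, 0.48, was not called (adjusted p = 0.45 by limma). Pde2a differed by -2.79 (SE 0.39, adjusted p = 0.029), with tamoxifen arrays higher than mock in culture and lower than control in glomeruli. Its glomerular difference alone, -0.68, was not called either (adjusted p = 0.31 by limma). Pde5a differed by -1.14 (SE 0.19, adjusted p = 0.044). When each of the 12 arrays was left out in turn, Rgs5 and Pde2a were each called in 4 of 12 fits and Pde5a in 2 of 12.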

How the results depend on the processing

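With 2 arrays a group, the number of receptors called moved from 0 to 1 under a few settings. With the replicate number as a replicate block, 1 receptor was called at day 4, 1 at day 7 and 1 for the glomerular minus culture response, and the block within each material gave 1 in each of these and 1 in glomeruli. Npr1 then had adjusted p = 0.036 (block) and 0.0048 (within material) at day 4, and 0.012 and 0.0016 at day 7, by limma. Same-numbered samples deviated together (correlation of deviations 0.21 in glomeruli, 0.511 at day 4, 0.538 at day 7). Across the 2 culture days the correlation was 0.551 for mock and 0.433 for tamoxifen cultures. The reported fit left this likeness out. The labels do not say what a number stands for, and its source was not tested. The Npr1 glomerular minus culture response had 0.031 and 0.0031. Foxc1 had 0.038 at day 4 within material, and 0.024 and 0.014 at day 7. Median scaling (0.047) and eBayes with trend (0.04) also brought Foxc1 past the threshold on day 7. Npr2 in glomeruli had adjusted p = 0.044 with the block within material. With normexp, 1 receptor was called at day 4: Ednrb, at 0.95 (adjusted p = 0.045) with its sign reversed. Npr1 was then -0.58 at day 4 and -1.88 at day 7 (adjusted p = 0.36 and 0.15). On day 4 tamoxifen replicate 1, normexp put the 3 undetected receptors at -1.30 to -1.28, against -3.65 to -2.38 on the other 11 arrays, and called 5039 genes at day 4 against 32. The cause was not tested.

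Leaving out 1 array gave 0 to 1 receptors called in glomeruli and for the glomerular minus culture response (1, Npr2, without tamoxifen glomeruli replicate 2), and 3 to 5 between mock cultures and glomeruli. Signs of uncalled differences turned, with ranges of -0.32 to 0.62 for Agtr1a in glomeruli, -0.95 to 0.16 at day 4 and -0.99 to 0.51 at day 7. The range was -0.21 to 1.32 for Ednra, -0.66 to 0.77 for Npr1 and -0.56 to 0.24 for Npr3 in glomeruli. It was -0.92 to 0.41 for Ednrb at day 4 and -0.36 to 0.16 at day 7, and -0.58 to 0.64 and -0.68 to 1.75 for Avpr1a. Between materials Npr1 ranged from -0.48 to 0.89 and Avpr1a from -0.40 to 0.81. Npr3 there materials was also lost with quantile scaling (0.76, adjusted p = 0.065) and Ednra with only the arrays compared (adjusted p = 0.063).

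Fitting only the arrays compared called 0 genes of all in glomeruli and at day 4 and 1 at day 7, against 402, 32 and 148, and ended the calls of Rgs5, Pde2a and Pde5a (adjusted p = 0.27, 0.31 and 0.27). Normexp called 5 in glomeruli and 44 at day 7. The block called 110 at day 4 and 243 at day 7, and the block within material 949, 238 and 658. In glomeruli 257 genes were called with no filter and 212 with the stricter one, and at day 4 quantile scaling called 52 and eBayes with trend 82. Leaving out 1 array gave 86 to 495 calls in glomeruli, 7 to 79 at day 4 and 9 to 237 at day 7. The glomerular minus culture response, 164 by the reported fit, ranged from 0 with normexp to 717 with the block within material. Mock day 7 against day 4 ranged from 0 to 10 around 5. Median scaling changed the split of higher and lower calls to 270 and 80 in glomeruli (reported 265 and 137), 114 and 71 at day 7 (69 and 79) and 7150 and 3042 between materials (5725 and 3955). Rgs5 with normexp was -1.56 (adjusted p = 0.072) and Pde5a -0.79 (adjusted p = 0.21).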

Other observations

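In the 4 culture groups the replicate numbers of the labels went with the level of several receptors. Number 1 read higher than number 2 in 4 of 4 groups for Agtr1a (mean difference 0.98), Ednra (1.18) and Avpr1a (1.40), and number 2 read higher in 4 of 4 for Npr1 (mean difference of number 1 minus number 2 -0.53) and Npr2 (-0.07). Over all 15217 genes, number 1 was higher in all 4 groups for 16.4% and number 2 for 20.5%. The labels do not say what a number stands for.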
